A study of Mus musculus with 6 samples.

Results

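The genes described here are 10 activation genes of disease-associated microglia: Trem2, Tyrobp, Axl, Clec7a, Itgax, Lpl, Spp1, Lgals3, Cst7 and Cd68. They were chosen by symbol, without use of their values, and each matched 1 of the 55421 gene rows of the cortex RNA-seq tables. The tissue was the cerebral cortex of male wild-type C57BL/6J mice on a standard diet, untreated apart from the isoflurane given before death. The 6-month group was mice 10, 11 and 17, and the 24-month group was mice 2, 4 and 5, with 1 library per mouse made from 10 ng of total RNA with a low-input kit. All are bulk tissue, so fewer cells of a type and less RNA per cell cannot be told apart. The comparison asks how these transcripts differ between adult and old cortex. Values are for 24 against 6 months throughout.

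Microglia are the resident macrophages of the brain. Near amyloid plaques, dying neurons and damaged myelin they lower the genes of their resting state and raise a shared set of receptors, secreted proteins and lysosomal proteins, a state named disease-associated. Trem2 is a lipid-sensing receptor that signals through the adaptor Tyrobp, and the full form of this state in mouse disease models requires it. Axl, Lpl and Spp1 are also made by other brain cells, so in bulk cortex they do not mark microglia alone.

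The libraries held 29495379 to 36494240 counts. At least 1 count fell on 40208 to 43561 genes in the 24-month mice and on 33974 to 35651 genes in the 6-month mice. A level in proportion to gene length was measured on 1542 sensory receptor genes, which cortex largely does not use. It was 0.0204, 0.0227 and 0.0234 CPM (counts scaled to library size) per exonic kilobase at 6 months, against 0.0942, 0.0769 and 0.0550 at 24 months. The median log2 fold change of all 32905 genes tested was 0.15 with TMM scaling, edgeR's scaling between libraries, and 0.34 with library totals. The CPM above are of library totals, and all CPM below are with TMM scaling. The 12 markers of homeostatic microglia all had counts, and the 10 activation genes had at least 3 counts in every mouse.

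In edgeR's quasi-likelihood test, 0 of the 10 genes passed a false discovery rate (FDR) of 1% and 0.0% of all genes tested did, while 4 of the 10 had an unadjusted p under 0.05, against 30.7% of all genes. The likelihood ratio test of edgeR called 1 of the 10 at 1% FDR (Itgax, which was higher), against 5.18% of all genes and 4.41% that were higher. The Wald test of DESeq2 called 0 of the 10 at 1% FDR and 1 at 10% FDR (Itgax), against 0.836% and 11.2% of all genes. At 10% FDR the quasi-likelihood test called 2 of the 10, Itgax and Cd68, both higher at 24 months. Of all genes tested 18.4% passed at 10% FDR, 10.0% being higher and 8.33% lower, so the share among the 10 was near that of all genes. In 4 genes (Trem2, Itgax, Lgals3 and Cd68) every 24-month mouse lay above every 6-month mouse on CPM, and 0 of the 10 had them all below, against 20.0% and 16.3% of all genes. In the account of each gene below, adjusted p-values are those of the quasi-likelihood test over all genes tested, fold changes carry their standard error (SE), and a gene is said to have risen or fallen where it passed 10% FDR.

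**Figure D1:**
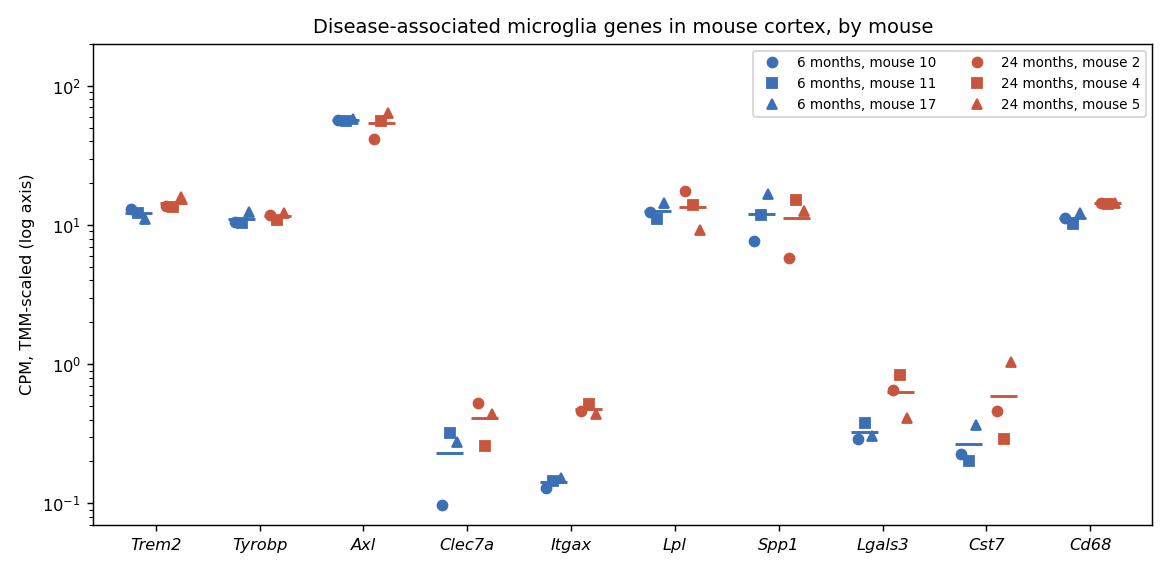
CPM with TMM scaling (log axis) of the 10 activation genes in each mouse, with a line at the mean of each age. The ages separated for Trem2, Itgax, Lgals3 and Cd68, and Itgax, Clec7a, Lgals3 and Cst7 had means below 1 CPM.

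The genome around the start of some of these genes is given first. Of the 10 genes, 8 had a promoter window in RefSeq's table (GRCm38.p6), and Tyrobp and Lpl were not in it. The 250 bases before the RefSeq start site were searched on both strands for 3 motifs of factors known in macrophages: GGAAGT, an ETS core of the kind PU.1 binds, TGACTCA, an AP-1 site, and CACGTG, the E-box of the Mitf and Tfe family. The 4 windows printed here are those of both genes that rose, of the central receptor Trem2, and of Spp1 as the gene most variable between mice among those above 1 CPM. They are at chr7:128129300-128129549 (plus strand, Itgax), chr11:69666171-69666420 (minus strand, Cd68), chr17:48346151-48346400 (plus strand, Trem2) and chr5:104434861-104435110 (plus strand, Spp1), each written 5′ to 3′ along its gene, with motif matches on either strand in capitals.
Itgax: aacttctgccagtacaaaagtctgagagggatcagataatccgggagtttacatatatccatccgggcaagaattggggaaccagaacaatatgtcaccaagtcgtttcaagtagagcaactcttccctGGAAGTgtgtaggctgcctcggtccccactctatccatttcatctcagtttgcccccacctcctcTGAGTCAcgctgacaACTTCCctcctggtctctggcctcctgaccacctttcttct
Cd68: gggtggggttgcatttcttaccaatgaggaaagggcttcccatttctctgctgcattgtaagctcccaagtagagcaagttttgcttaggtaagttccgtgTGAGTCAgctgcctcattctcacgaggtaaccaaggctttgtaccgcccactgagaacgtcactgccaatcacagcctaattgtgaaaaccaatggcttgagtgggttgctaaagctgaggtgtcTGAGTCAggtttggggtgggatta
Trem2: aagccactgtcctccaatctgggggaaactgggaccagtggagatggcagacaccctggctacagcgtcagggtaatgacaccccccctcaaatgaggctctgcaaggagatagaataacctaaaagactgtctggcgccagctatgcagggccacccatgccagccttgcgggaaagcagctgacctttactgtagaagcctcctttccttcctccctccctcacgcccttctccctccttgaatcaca
Spp1: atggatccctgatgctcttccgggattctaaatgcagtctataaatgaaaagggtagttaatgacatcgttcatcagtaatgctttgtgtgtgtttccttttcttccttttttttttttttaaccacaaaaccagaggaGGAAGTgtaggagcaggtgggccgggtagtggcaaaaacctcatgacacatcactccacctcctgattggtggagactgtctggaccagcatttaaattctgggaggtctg
The Itgax window held 2 ETS cores and 1 AP-1 site, the Cd68 window 2 AP-1 sites, the Spp1 window 1 ETS core and the Trem2 window none of the 3. Over the 8 windows, 3 held an ETS core (Itgax, Spp1 and Cst7), 2 an AP-1 site and 0 an E-box. In all 32851 windows of the table the shares were 19.7% for the ETS core, 4.46% for the AP-1 site and 6.02% for the E-box. The motifs share no letters with each other in these windows. A match is only of letters, and binding was not measured.

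Trem2 (ENSMUSG00000023992.14, chr17:48346401-48354147, plus strand) had counts of 405, 418 and 363 at 6 months (mice 10, 11 and 17, the order used for each gene) against 446, 463 and 538 at 24 months (mice 2, 4 and 5). In CPM these were 13.1, 12.1 and 11.1 against 13.7, 13.4 and 15.8. The ages did not overlap, although mouse 4 exceeded mouse 10 by little. The mean went from 12.1 ± 1.03 to 14.3 ± 1.31 CPM (SD, n = 3 mice), 1.18-fold higher. This is a log2 fold change of 0.24 (SE 0.13, 95% interval -0.04 to 0.52, adjusted p = 0.218), which did not pass 10% FDR. With library totals in place of TMM the log2 fold change was 0.43 and the adjusted p was 0.0712, which is past 10% FDR, where 13.5% of all genes were called.

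Tyrobp (ENSMUSG00000030579.10, chr7:30413760-30417585, plus strand) encodes the adaptor, also called DAP12, that carries the activating motif for Trem2 and other myeloid receptors. Its CPM was 10.4, 10.3 and 12.5 at 6 months and 11.8, 10.9 and 12.2 at 24 months. The ages overlapped, with the highest value in a 6-month mouse. Its log2 fold change was 0.07 (SE 0.13, 95% interval -0.21 to 0.36, adjusted p = 0.727). The receptor and its adaptor thus had intervals that overlap widely, and the difference between them was not tested.

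Among the surface receptors, Itgax (ENSMUSG00000030789.9, chr7:128129547-128150657, plus strand), the integrin alpha chain of CD11c, had the largest fold change of the 10. Its counts were 4, 5 and 5 at 6 months against 15, 18 and 15 at 24 months. Every 24-month mouse thus held at least 10 counts more than any 6-month mouse. In CPM it went from 0.142 ± 0.0117 to 0.475 ± 0.0411 (SD, n = 3 mice), and its log2 fold change was 1.71 (SE 0.36, 95% interval 0.89 to 2.52, adjusted p = 0.0518). The summed counts were 14 (95% exact Poisson interval 7.65 to 23.5) and 48 (35.4 to 63.6), intervals that cover counting error only and do not overlap. The level of sensory receptor genes corresponds, for the exonic length of Itgax, to 3.28, 3.99 and 3.92 counts at 6 months and to 13.3, 11.9 and 8.66 counts at 24 months. These sums are 79.9% of the Itgax counts at 6 months and 70.7% at 24 months. That level was then subtracted from every gene, and the remainder was rounded to whole counts. The log2 fold change of Itgax was then 2.17 (SE 0.84, adjusted p = 0.320), and the call was lost. Few Itgax counts were left at 6 months, so this value does not show a larger difference than before. Without subtraction, the adjusted p of Itgax was 0.0357 to 0.166 with 1 mouse left out. The call was lost without the 6-month mice 10 or 11 or the 24-month mice 2 or 4.

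Clec7a (ENSMUSG00000079293.11, chr6:129461591-129472779, minus strand), which encodes the fungal glucan receptor Dectin-1, carries the biotype polymorphic pseudogene in GENCODE vM21. Its counts were 3, 11 and 9 at 6 months and 17, 9 and 15 at 24 months. Mouse 10 was lowest, and the 24-month mouse 4 lay below the 6-month mouse 11 in CPM, so the ages overlapped. This gave a log2 fold change of 0.79 (SE 0.47, 95% interval -0.25 to 1.84, adjusted p = 0.271). The level of sensory receptor genes corresponds to 26.7% of its counts at 6 months and 45.5% at 24 months, and its log2 fold change was 0.50 after subtraction.

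Axl (ENSMUSG00000002602.16, chr7:25757273-25788705, minus strand) is a receptor tyrosine kinase that binds Gas6 on dying cells. Its CPM was 56.4, 55.7 and 57.4 at 6 months and 41.9, 55.7 and 63.8 at 24 months. The 6-month mice were nearly equal (56.5 ± 0.871), while the 24-month mice lay on both sides of them (53.8 ± 11.1, SD, n = 3 mice). The fitted difference was a log2 fold change of -0.07 (SE 0.14, 95% interval -0.39 to 0.24, adjusted p = 0.757), with a sign that turned under library totals (0.12) and without the 24-month mouse 2 (0.090). The summed CPM of 7 vascular markers was 315, 231 and 274 at 6 months and 180, 297 and 380 at 24 months, and that of 6 oligodendrocyte lineage markers was 2584, 3237 and 2094 against 1089, 2689 and 3597. In the 24-month mice Axl and both sums had the same order, with mouse 2 lowest and mouse 5 highest. The sums of the homeostatic microglia, astrocyte and cortical neuron markers had that order as well, and in the 6-month mice neither the vascular nor the oligodendrocyte sum followed Axl. The astrocyte sum was 3325, 3122 and 3403 CPM at 6 months against 3100, 3198 and 3536 CPM at 24 months. It ranked the mice of each age as Axl did. The part of these cells in the Axl values was not tested.

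Among the secreted proteins, Lpl (ENSMUSG00000015568.16, chr8:68880491-68907448, plus strand), lipoprotein lipase, had CPM of 12.5, 11.1 and 14.3 at 6 months and 17.5, 13.9 and 9.26 at 24 months. The 24-month mice held both the highest value (mouse 2) and the lowest (mouse 5) of the 6. Its log2 fold change was 0.10 (SE 0.21, 95% interval -0.37 to 0.57, adjusted p = 0.761), and it was -0.11 without the 24-month mouse 2.

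Spp1 (ENSMUSG00000029304.14, chr5:104435118-104441050, plus strand), osteopontin, had CPM of 7.66, 11.8 and 16.8 at 6 months and 5.76, 15.2 and 12.6 at 24 months. It had a coefficient of variation of 37.7% and 43.6% within the ages, and the ages overlapped. The log2 fold change was -0.11 (SE 0.35, 95% interval -0.88 to 0.66, adjusted p = 0.850), and this interval leaves room for a difference in either direction. The summed CPM of 5 markers of the meninges was 28.9, 49.6 and 66.8 at 6 months and 29.2, 76.0 and 38.7 at 24 months, in the same order of mice as Spp1 within each age. The sums of the border macrophage markers and of the monocyte and neutrophil markers had that order too. The part of these tissues and cells in the Spp1 values was not tested. Spp1 shares 309 exonic bases on its strand with Gm42793, whose counts were 1 to 7 per mouse, and reads in those bases cannot be assigned to one of them.

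Lgals3 (ENSMUSG00000050335.17, chr14:47367751-47386160, plus strand), galectin-3, a galactoside-binding protein of activated macrophages, had counts of 9, 13 and 10 at 6 months and 21, 29 and 14 at 24 months. The ages did not overlap, with the 24-month mouse 5 (0.412 CPM) nearest to the 6-month mouse 11 (0.377 CPM). The mean went from 0.325 ± 0.0455 to 0.632 ± 0.214 CPM (SD, n = 3 mice). The log2 fold change was 0.95 (SE 0.36, 95% interval 0.16 to 1.75, adjusted p = 0.113), which did not pass 10% FDR, and with library totals the adjusted p was 0.0922. The adjusted p was 0.0757 in the likelihood ratio test and 0.0914 in the exact test of edgeR, and 0.219 in the Wald test of DESeq2. The level of sensory receptor genes corresponds to 13.5% of its counts at 6 months and 20.5% at 24 months, and after subtraction its log2 fold change was 1.02 (adjusted p = 0.342).

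Of the lysosomal proteins, Cst7 (ENSMUSG00000068129.5, chr2:150570415-150578944, plus strand) encodes cystatin F, an inhibitor of lysosomal cathepsins. Its counts were 7, 7 and 12 at 6 months and 15, 10 and 35 at 24 months. Mouse 5 stood far above the other mice, and the 24-month mouse 4 lay below the 6-month mouse 17 in CPM. The log2 fold change was 1.15 (SE 0.51, 95% interval 0.02 to 2.28, adjusted p = 0.158), and without mouse 5 it was 0.49.

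Cd68 (ENSMUSG00000018774.13, chr11:69664213-69666153, minus strand) encodes a lysosomal membrane glycoprotein of macrophages that is widely used to stain phagocytic microglia. Its CPM was 11.3, 10.1 and 12.3 at 6 months and 14.4, 14.2 and 14.3 at 24 months. The 24-month mice were close to each other and lay above the 6-month mice. The mean went from 11.2 ± 1.08 to 14.3 ± 0.0698 CPM (SD, n = 3 mice), 1.27-fold higher. The log2 fold change was 0.35 (SE 0.12, 95% interval 0.08 to 0.62, adjusted p = 0.0929). The level of sensory receptor genes corresponds to 0.267% of its counts at 6 months and 0.615% at 24 months. The call at 10% FDR was lost with any 1 mouse left out (adjusted p = 0.102 to 0.245) and in the likelihood ratio test (adjusted p = 0.122) and the Wald test of DESeq2 (adjusted p = 0.116). For Trem2, Itgax, Lgals3 and Cd68, an exact permutation test of the CPM over mice gave p = 0.1 (two-sided), the smallest that 3 mice against 3 allow.

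**Figure D2:**
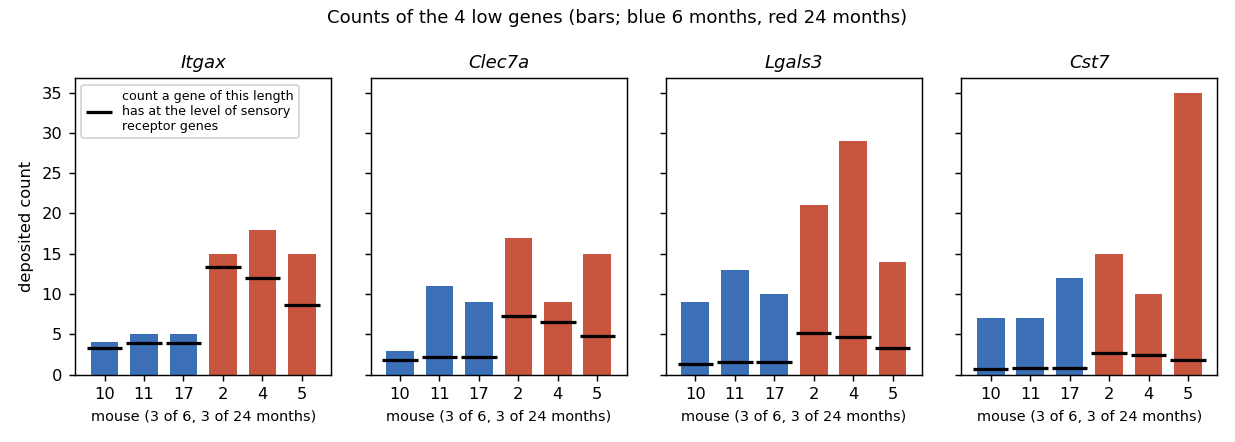
Deposited counts (bars) of Itgax, Clec7a, Lgals3 and Cst7 in each mouse, and the count that a gene of the same exonic length has at the level of sensory receptor genes in that mouse (black lines). The lines were higher at 24 months in every panel. They lay close to the Itgax bars of the 6-month mice and of mouse 2, and they lay well below the Lgals3 and Cst7 bars.

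The 10 genes differed in how many counts they held. The 6 genes above 1 CPM (Trem2, Tyrobp, Axl, Lpl, Spp1 and Cd68) had fitted log2 fold changes between -0.11 and 0.35, of which 4 were above 0. Of all 15761 genes above 1 CPM, 30.0% had a fitted value above 0, and their median was -0.14. Trem2 and Cd68 were the 2 of these 6 whose ages did not overlap, with every 24-month mouse higher, as for 5.32% of all genes above 1 CPM, and Cd68 rose at 10% FDR, as did 2.43%. The 4 genes at or below 1 CPM (Clec7a, Itgax, Lgals3 and Cst7) had values between 0.79 and 1.71. Of all 17144 genes at or below 1 CPM, 84.6% had a fitted value above 0, with a median of 0.89, 33.5% had every 24-month mouse higher and 17.0% rose at 10% FDR. Among the 4 these were Itgax and Lgals3 for the ages without overlap and Itgax for the call.

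Small differences of these genes depended on the scaling. The median log2 fold change of the 10 was 0.30 with TMM scaling, 0.15 above the median of all genes. With library totals it was 0.49, again 0.15 above. The number of the 10 with a value above 0 was 8 with TMM and 10 with library totals, and with each scaling 6 lay above the median of all genes (Trem2, Clec7a, Itgax, Lgals3, Cst7 and Cd68). After subtraction of the sensory receptor level the median of the 10 was 0.43 and that of all genes 0.02. All 10 values were then above 0, and 9 lay above the median of all genes. At 10% FDR 0 of the 10 were then called, as were 0.11% of all genes tested. Of the 10, 4 had ages that did not overlap, and the share of all genes was not computed for this setting. The adjusted p-values were then 0.221 for Cd68 and 0.285 for Trem2.

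**Figure D3:**
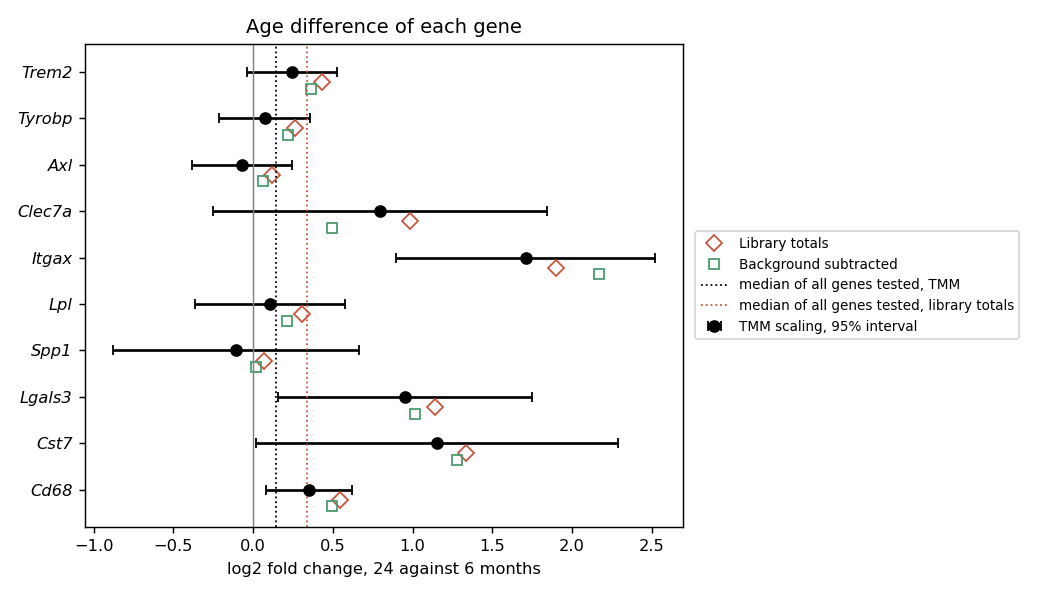
Log2 fold change of each gene at 24 against 6 months with its 95% interval (black, TMM scaling), and the values with library totals (red diamonds) and after subtraction of the sensory receptor level (green squares). Dotted lines mark the median of all genes tested, 0.15 with TMM and 0.34 with library totals. The intervals of Itgax, Lgals3, Cst7 and Cd68 lay above 0.

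Levels of different genes were compared per length. In mean TPM (the deposited level, scaled for gene length and library size) over the 6 mice, Tyrobp was highest at 62.4, followed by Axl at 40.1, Cd68 at 37.3, Spp1 at 25.8, Trem2 at 9.82 and Lpl at 4.58. Cst7 had 1.62 TPM, Lgals3 0.955, Clec7a 0.449 and Itgax 0.240. By this level Tyrobp ranked 2964 and Itgax 30859 of 55421 genes. Among neighbours in this order, the ranges over mice separated between Tyrobp and Axl, between Spp1 and Trem2 and between Trem2 and Lpl. The other neighbours overlapped, and their order was not resolved. The whole order of the means held in 2 of 6 mice. In TPM the adaptor Tyrobp thus exceeded its receptor Trem2 in every mouse. This order rests on the exonic lengths used, 667 bases for Tyrobp and 4946 for Trem2. In mean CPM, which is not per length, Tyrobp was below Trem2, at 11.1 against 12.1 at 6 months and 11.6 against 14.3 at 24 months.

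To set the genes against other microglial RNA, each was divided by the summed CPM of 12 markers of homeostatic microglia, such as P2ry12, Tmem119 and Cx3cr1, in the same mouse. Activated microglia lower genes of the resting state, so this sum does not measure microglial RNA as a whole. A ratio can be higher through a lower sum. The ratio does not depend on the scaling between libraries. The sum was 555, 549 and 553 CPM at 6 months against 506, 530 and 573 CPM at 24 months (552 ± 3.23 and 537 ± 34.1, SDs over 3 mice). With this TMM scaling the ages overlapped, with a log2 difference of -0.04 (exact permutation test, two-sided, p = 0.5). With library totals it was 0.15, and the exact permutation test (two-sided) gave p = 0.1, the smallest that 3 mice against 3 allow. That value arises only without overlap, so with library totals the sum was higher in every 24-month mouse than in every 6-month mouse. Within the list 2 of 12 genes passed 10% FDR with TMM scaling, in opposite directions. With library totals 2 were higher (Tmem119 and Selplg) and 0 lower. Csf1r, the receptor for the growth factor on which microglia survive, fell (log2 fold change -0.34, SE 0.10, adjusted p = 0.0646), a call that was lost with library totals (-0.15, adjusted p = 0.294). Tmem119, a surface protein of resident microglia, rose (0.34, SE 0.10, adjusted p = 0.0684), and with library totals it was 0.53 (adjusted p = 0.0494).

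Relative to these markers, Trem2 was 2.37%, 2.21% and 2.00% of the sum at 6 months and 2.72%, 2.52% and 2.76% at 24 months. The ages did not overlap, and the gap between them was wider than on CPM. Cd68 was 2.03%, 1.84% and 2.22% at 6 months and 2.84%, 2.68% and 2.49% at 24 months, again without overlap. Itgax went from 0.0258% ± 0.00218 to 0.0888% ± 0.0109, whereas Lgals3 was 0.0588% ± 0.00860 and 0.119% ± 0.0438 (SDs over 3 mice). For each of these 4 ratios the exact permutation p was 0.1, the smallest possible. Axl was 10.2% and 9.97% of the sum in the mean, and it overlapped between the ages, as did Tyrobp, Clec7a, Lpl, Spp1 and Cst7. Of all genes tested, 20.5% had every 24-month mouse higher on this ratio and 13.3% had every one lower, against 4 and 0 of the 10 genes.

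**Figure D4:**
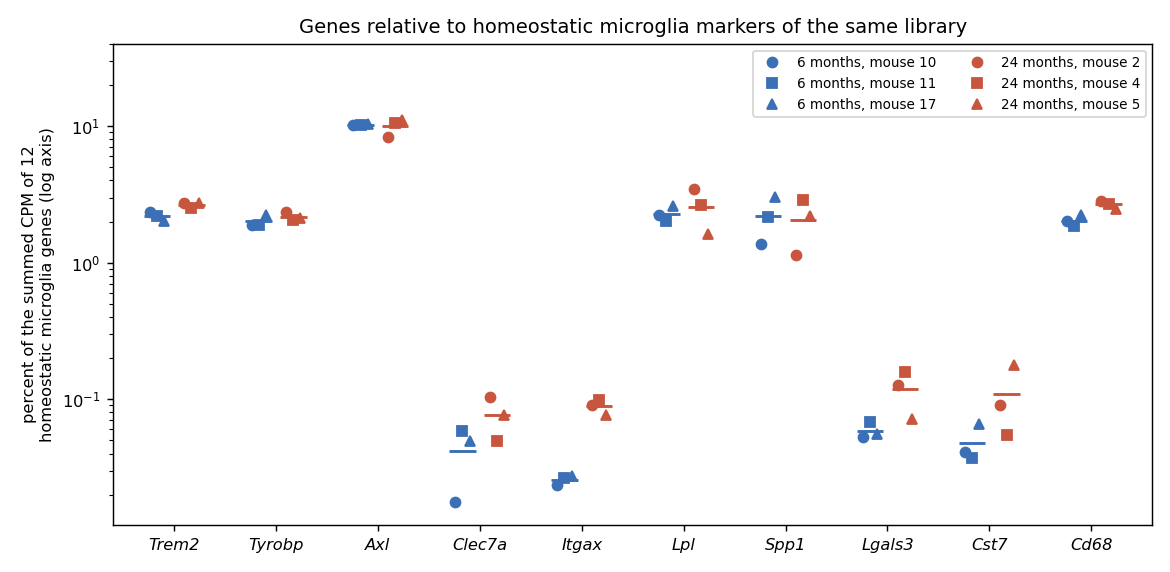
Each gene's CPM as a percent of the summed CPM of 12 homeostatic microglia genes in the same mouse (log axis), with a line at the mean of each age. Trem2, Itgax, Lgals3 and Cd68 separated by age, and Axl stayed near 10% in both ages.

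A list of 29 further genes of the disease-associated state, such as Apoe, B2m and the cathepsins, held both genes that rose and a gene that fell with TMM scaling. Of these, 4 rose and 1 fell at 10% FDR, and their median log2 fold change was 0.02. The 25 of them above 1 CPM had a median of -0.039, against -0.14 for all genes at that level. The genes given here as fallen, in this list and the next ones, lost that call with library totals. They were above 1 CPM, where 2725 of all 15761 genes fell with TMM scaling. With library totals 6 of the 29 rose and 0 fell. Lyz2, lysozyme, rose from counts of 217, 308 and 360 to 529, 711 and 411 (log2 fold change 0.86, SE 0.21, adjusted p = 0.0565). All 24-month mice were above the 6-month mice. The chemokine gene Ccl3 had 2 counts in each 6-month mouse, against 7, 13 and 12 at 24 months (adjusted p = 0.0526), and the proton pump subunit gene Atp6v0d2 had 2, 3 and 1 against 14, 10 and 5 (adjusted p = 0.0664). The sensory receptor level corresponds to 16.9% of the 24-month Ccl3 counts and 66.2% of those of Atp6v0d2. Hif1a, the oxygen-regulated transcription factor, fell with TMM scaling (log2 fold change -0.49, SE 0.16, adjusted p = 0.0820), whereas with library totals it was -0.30 (adjusted p = 0.195). The fourth that rose was Cybb, the catalytic subunit of the phagocyte oxidase, which was named after its values were seen (0.87, SE 0.30, adjusted p = 0.0928). Lyz2 and Cybb are also expressed by blood-derived myeloid cells.

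Of 10 genes that act downstream of Trem2 and Tyrobp or cut Trem2 from the cell surface, 0 rose and 1 fell at 10% FDR. Their median was 0.18, and the 9 above 1 CPM had a median of 0.19, against -0.14 for all genes at that level. With library totals 1 rose and 0 fell. The kinase gene Syk had 2.48 CPM at 6 months and 2.83 at 24 months, and Plcg2, the phospholipase it activates, 3.85 and 4.09. Adam10, a protease that sheds the outer part of Trem2, fell from counts of 4715, 4612 and 4260 to 3012, 3819 and 4032 (log2 fold change -0.37, SE 0.11, adjusted p = 0.0747). With library totals it was -0.18 (adjusted p = 0.261), and the Wald test of DESeq2 gave an adjusted p of 0.110. On CPM with TMM scaling every 24-month mouse was below every 6-month mouse, as for 5119 of all 15761 genes above 1 CPM. Adam10 is expressed by most cells of the cortex, and these counts do not separate the microglial part.

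Of 13 ligands and partners of the 10 proteins, 1 rose and 1 fell, with a median of -0.01, and with library totals 3 rose and 0 fell. The 12 above 1 CPM had a median of -0.064, against -0.14 for all genes at that level. Clu, clusterin, a lipoprotein component that Trem2 binds, fell from 920 ± 15.9 CPM to 755 ± 28.5 CPM (log2 fold change -0.28, SE 0.08, adjusted p = 0.0644). With library totals it was -0.093 (adjusted p = 0.437), and the likelihood ratio test gave an adjusted p of 0.105. Gpihbp1, the endothelial anchor of lipoprotein lipase, had 0 counts in every 6-month mouse, against 5, 5 and 1 at 24 months (adjusted p = 0.0760). The sensory receptor level corresponds to 7.10, 6.35 and 4.61 counts of Gpihbp1 at 24 months, 164% of those counted. The Axl ligand Gas6 had 95.6 ± 7.53 CPM and 83.0 ± 11.6 CPM, and Itgb2, the beta chain that pairs with Itgax, 6.58 ± 1.17 and 8.14 ± 0.446 CPM (SD, n = 3 mice). Neither passed 10% FDR with TMM scaling (adjusted p = 0.264 and 0.208). With library totals Itgb2 passed (log2 fold change 0.50, adjusted p = 0.0893) and Gas6 did not (-0.015, adjusted p = 0.937).

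Of 12 regulators of transcription in myeloid cells, 1 rose and 1 fell, with a median of -0.12, and with library totals 2 rose and 0 fell. The 11 above 1 CPM had a median of -0.13, against -0.14 for all genes at that level. Bhlhe40, a repressor of the clock and lipid genes that neurons express as well, fell (log2 fold change -0.53, SE 0.14, adjusted p = 0.0602), whereas with library totals it was -0.33 (adjusted p = 0.159). Tfec, a macrophage member of the Mitf family, rose from counts of 4, 5 and 5 to 16, 18 and 9 (log2 fold change 1.55, SE 0.43, adjusted p = 0.0631). The sensory receptor level corresponds to 93.1% of its counts at 6 months and 92.0% at 24 months. The names and values of the further genes in these lists that stand beside a called gene were chosen after their values were seen.

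**Figure D5:**
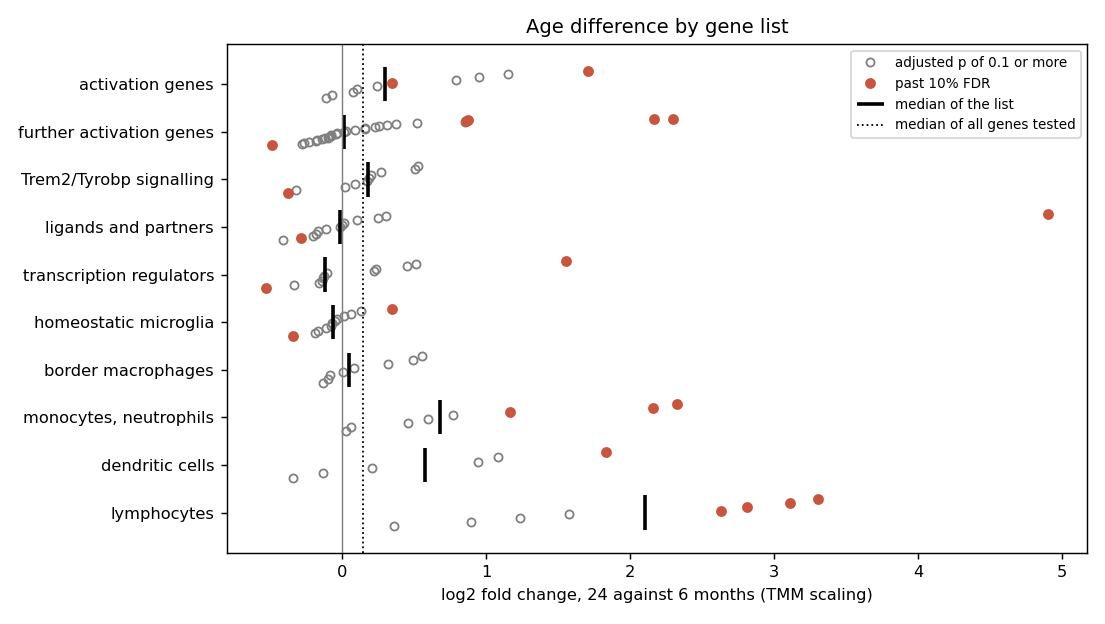
Log2 fold change of every gene of 10 lists at 24 against 6 months (TMM scaling), with genes past 10% FDR in red, the median of each list as a black bar and the median of all genes tested as a dotted line at 0.15. The point farthest to the right is Gpihbp1, whose fitted value against 0 counts at 6 months is no bound. The activation genes had 2 of 10 in red, and the lymphocyte list, with 4 of 8 in red, had a median of 2.10.

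Other immune cells can hold some of the 10 transcripts, Itgax in dendritic cells and Lgals3, Cst7 and Cd68 in monocytes and macrophages, and their markers are therefore given beside them. Of 6 dendritic cell markers 1 rose, Xcr1, from counts of 3, 6 and 3 to 10, 28 and 7 (adjusted p = 0.0890). The summed CPM of the list was 43.1 to 49.0 at 6 months and 36.2 to 40.6 at 24 months. In this list 4 of 6 fitted values were above 0. The 3 markers above 1 CPM, which carry most of that sum, had a median log2 fold change of -0.13, and the 3 others 1.08. For all genes at those levels the medians were -0.14 and 0.89. Of 8 markers of monocytes and neutrophils 3 rose (Ccr2, Plac8 and Ly6c2), and their sum was 2.27 to 3.66 CPM against 2.25 to 5.78 CPM. Ccr2, the receptor that draws monocytes into tissue, had counts of 12, 21 and 22 against 44, 53 and 30. At 6 and 24 months the sensory receptor level corresponds to 28.6% and 37.6% of the Ccr2 counts, 61.8% and 38.8% of those of Plac8 and 213% and 114% of those of Ly6c2. Of 8 lymphocyte markers 4 rose, among them Ms4a1, Nkg7 and Cd8a, from sums of 2.05 to 3.08 CPM to sums of 3.73 to 6.01 CPM. Ms4a1 had counts of 1, 2 and 4 against 28, 23 and 14. The same level corresponds to 206% and 67.3% of the Ms4a1 counts, 71.0% and 19.0% of those of Nkg7 and 282% and 107% of those of Cd8a. The genes that rose in these 3 lists were at or below 1 CPM, where 17.0% of all genes rose. Of 8 markers of border macrophages 0 passed 10% FDR, and their sums were 14.4 to 22.8 CPM and 15.3 to 26.0 CPM. The 2 with the largest fold changes were Ms4a7 (0.55) and Cd163 (0.49). No list had a marker at 0 in every mouse. Cd8a and Ly6c2 were at 0 in the 6-month mouse 10, and another marker of monocytes and neutrophils was at 0 in the 24-month mouse 2. The part of these cells in the values of Itgax, Lgals3, Cst7 and Cd68 was not tested.

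The genes whose pattern over the 6 mice was most like the mean standardised log2 CPM of the 10 were, among 15755 genes of at least 1 CPM, Igf2bp2 (Pearson r = 0.993), Gm43753 (0.992), Wdr27 (0.991), Gm44260 (0.989) and Setd1a (0.986). This is a description over 6 libraries, whose depth enters both sides of each correlation, and 208 of the 15755 genes had r above 0.9.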

How the data were processed

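RNA-seq of the cortex of 6 mice was analysed. Per the labels and the methods of the study, the authors trimmed reads with Trim Galore 0.6.4, mapped them to GRCm38 with STAR 2.7.3a and counted them on exons with featureCounts of Subread 2.0.0. The counts deposited by the authors were whole numbers and were used unchanged. The authors also deposited TPM values, which were used for levels and for limma. Count and TPM rows were joined by position. The exonic lengths implied by TPM equalled those of GENCODE vM21 for the 10 genes.

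Tests ran in edgeR 4.0.16 (R 4.3.3) on genes holding 10 or more counts in sum, with TMM scaling, the quasi-likelihood test, no covariates and Benjamini-Hochberg adjustment, after the scripts were tested on simulated data. The study used 1% FDR, and 10% is given as well. Alternatives were the likelihood ratio and exact tests, DESeq2 1.42.0 (5745 adjusted p-values not given), other scalings and filters, subtraction of the sensory receptor level, limma 3.58.1 on log2(TPM + 1) and log2(TPM + 0.1), and each mouse left out. Other computations used Python 3.11.15 and scipy 1.17.1. The genes, lists and settings were chosen with earlier results of these data known. Named genes are the 10, up to 4 per list past 10% FDR in order of p (or else the 2 of largest fold change), and the 5 most alike, apart from some list genes that are not reported here. Mice are separate animals, and no extraction or sequencing batch is given, so age and batch cannot be told apart. Precision is that of 29495379 to 36494240 counts per library, and Poisson intervals cover counting error only. Protein sequences were not used here.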

Additional observations from a re-analysis of the deposited data

How the results depend on the processing

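At 1% FDR the count of the 10 genes called went from 0 to 1 with the likelihood ratio test and to 1 with the exact test of edgeR, Itgax in both, and stayed 0 under the other alternatives. At 10% FDR, where 2 were called, it was 4 with library totals, 1 with DESeq2, 1 with no filter, and 0 with 1 CPM in 3 libraries, after background subtraction and in each of the 3 limma runs on TPM. It was 0 to 2 with 1 mouse left out: 0 without the 6-month mice 10 or 11 or the 24-month mice 2 or 4. The count stayed 2 in the likelihood ratio and exact tests and without the 24-month mouse 5. In these settings the 2 were Itgax and Lgals3, and Cd68 did not pass. The cause was not tested, except that the minimum of 1 CPM removes Itgax, Clec7a, Lgals3 and Cst7. filterByExpr removes Clec7a.

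Of all genes tested, 6040 were called at 10% FDR. The number was 4439 with library totals (13.5% of those tested), 7498 in the likelihood ratio test and 6183 in the exact test. It was 3048 with DESeq2, 1538 with filterByExpr, 4014 with no filter and 112 with 1 CPM in 3 libraries. After subtraction it was 28, and in the limma runs 71, 538 and 59. With 1 mouse left out, it ranged from 0 (mouse 10 or mouse 4 left out) to 7998 (mouse 5 left out). At 1% FDR, where it was 0, the likelihood ratio test called 1703, the exact test 1122, DESeq2 227 and no filter 42.

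Trem2, Tyrobp and Cd68 had a positive log2 fold change under all 18 alternatives, Itgax, Lgals3 and Cst7 under the 17 and Clec7a under the 16 that kept them. Axl (main value -0.07) was 0.12 with library totals, 0.039 with filterByExpr, 0.077 with 1 CPM in 3 libraries, 0.063 after subtraction, 0.021 in each of the 3 limma runs and -0.21 to 0.090 with 1 mouse left out (the highest without the 24-month mouse 2). Spp1 (-0.11) was 0.070, 0.034 and 0.017 with library totals, 1 CPM in 3 libraries and subtraction, and -0.39 to 0.21 with 1 mouse left out (0.20 without the 6-month mouse 17, 0.21 without the 24-month mouse 2). Lpl (0.10) was -0.11 without the 24-month mouse 2 and up to 0.32 otherwise. The summed homeostatic markers (-0.04) were 0.15 with library totals and -0.088 to 0.0073 with 1 mouse left out (the highest without the 24-month mouse 2). With 1 mouse left out, 4 to 6 of the 10 genes had every 24-month mouse higher, on CPM and on the ratio alike. Ages separate more readily with fewer mice, and the share of all genes was not computed for these settings. For Axl, Lpl, Spp1 and the marker sum the cause was not tested.

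No paired analysis was possible because the mouse numbers of the 2 ages are not shared. The 4 genes below 1 CPM rest on 3 to 35 counts per mouse, so differences of less than about their intervals were not detectable at this depth.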

Other observations

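Among markers of the main cortical cell types, 1 of 6 astrocyte markers rose at 10% FDR, Gfap, the intermediate filament of reactive astrocytes, with counts of 4029, 6008 and 5442 against 9421, 10624 and 5584 (log2 fold change 0.69, SE 0.21, adjusted p = 0.0738 in the quasi-likelihood test). The ages overlapped in Gfap, since the 24-month mouse 5 lay within the 6-month range. Of 7 markers of cortical neurons 2 fell, among them the synaptic vesicle calcium sensor gene Syt1 (-0.40, adjusted p = 0.0652), and with library totals 0 of the 7 passed (Syt1 -0.21, adjusted p = 0.194). Among red blood cell genes 1 of 5 fell (Hbb-bt, -0.64, adjusted p = 0.0879), and 0 with library totals (-0.46, adjusted p = 0.182). Of 7 vascular, 6 oligodendrocyte lineage, 5 meningeal and 5 choroid plexus markers 0 passed, while with library totals 1 did (Cspg4). Their largest fold changes were those of Pdgfrb (-0.15) and Cldn5 (0.12), of Pdgfra (-0.21) and Cspg4 (0.20), of Lum (0.26) and Col1a1 (-0.20), and of Folr1 (0.39) and Ttr (0.32).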
